A study of Mus musculus with 6 samples.

Results

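The 9 genes described here encode proteins with known roles in the fusion of osteoclast precursors and in the osteoclast's enzymes: *Ocstamp*, *Dcstamp*, *Acp5*, *Car2*, *Cd9*, *Cd81*, *Cd44*, *Cd47* and *Sirpa*. They were chosen by name with earlier results of these data known, and all 9 were found among the 24346 gene symbols of the tables. The study had reported *Ocstamp* and *Dcstamp* as lower with JAK inhibitor in these data, with *Ctsk* and *Atp6v0d2*, which are described below. Counts of lower genes among the 9 and in the lists are therefore not independent of these data. Per the study's methods, RNA-Seq was performed on EGFP+ cells sorted from the calvaria of CX3CR1-EGFP mice, in which the reporter marks cells of the monocyte lineage and not osteoclast precursors alone. All 6 mice carried the reporter and received lipopolysaccharide (LPS, 20 mg/kg) in the periosteum of the calvaria. Treatment lasted 5 days, with the JAK1-selective inhibitor ABT-317 at 60 mg/kg in 2 daily doses for 3 of the mice and with vehicle for the other 3. An LPS-free group was not analysed here, so the comparison is of JAK inhibitor with vehicle in the presence of LPS, and the ages of these mice are not given in the sources used here.

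Osteoclasts are bone-resorbing cells that form when mononuclear precursors of the monocyte lineage fuse, under the influence of M-CSF and RANKL. Fusion needs the multipass membrane proteins DC-STAMP and OC-STAMP, and is tuned by tetraspanins, which organize other membrane proteins, and by adhesion pairs such as CD47 with its receptor SIRPα. Tartrate-resistant acid phosphatase (TRAP, the product of *Acp5*) stains osteoclasts and their precursors, and carbonic anhydrase II (the product of *Car2*) supplies the protons with which bone mineral is dissolved. LPS drives the production of inflammatory cytokines, several of which signal through JAK kinases.

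The values are FPKM, fragment numbers scaled by transcript length and library size, so that levels can be set side by side between genes. They were compared as log2(FPKM + 1) with limma over the 11301 genes that reached 1 FPKM in any of the mice, and all 9 genes passed this filter. *Ocstamp* and *Dcstamp* reached 1 FPKM in vehicle-treated mice only, so they passed through the group in which they were higher. Without a filter their limma adjusted p was 0.303 and 0.241. Differences are JAK inhibitor minus vehicle on the log2(FPKM + 1) scale, where differences between low values come out smaller than their ratios. With 3 mice per group, an exact 2-sided permutation test of a single gene cannot give a p below 0.1. These are bulk samples, so fewer cells of a type and less RNA per cell cannot be told apart.

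At an adjusted p under 0.05 in limma, 0 of the 9 genes differed between the groups, beside 15 genes, or 0.133%, of all genes tested. The mean levels of both fusion genes and of *Acp5* were lower in JAK inhibitor-treated mice, by 1.12 to 1.73 on the log2 scale, and for each of these 3 genes the groups did not overlap. *Car2*, both tetraspanins and the 3 adhesion genes differed by at most 0.39 in either direction, with overlapping groups. At an unadjusted p under 0.05, 3 of the 9 were lower and 1 (*Cd81*) was higher, where 9.4% of all tested genes were lower and 6.57% were higher. Groups that did not overlap, with vehicle above, were found for 3 of the 9 and for 12.1% of all tested genes, and with JAK inhibitor above for 0 of the 9 and for 9.92% of all tested genes. The median difference was -0.14 over the 9 genes and -0.0035 over all tested genes, and without vehicle-treated mouse 3 it was -0.041 and -0.0043.

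**Figure D1:**
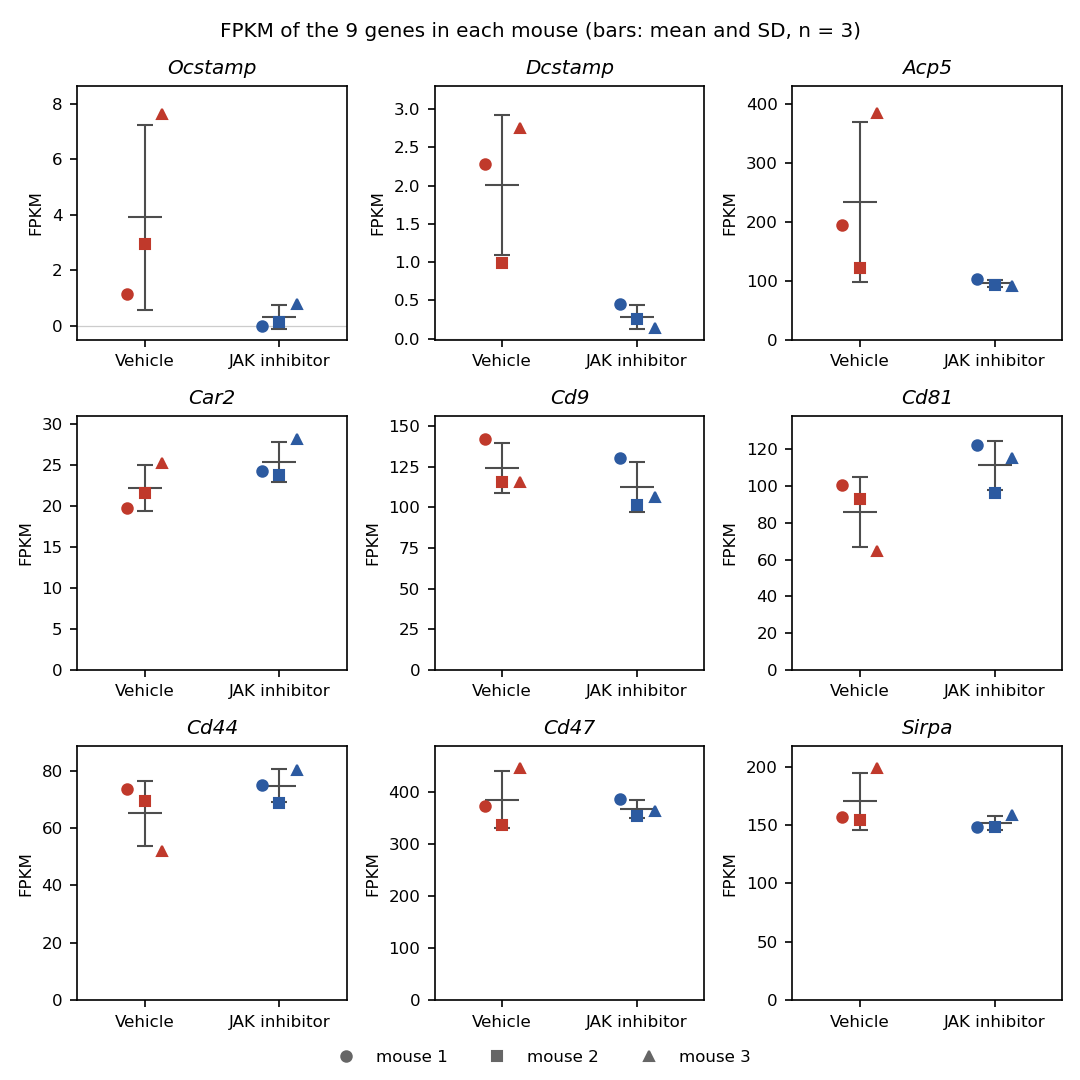
FPKM (vertical axis, linear, a separate scale for each gene) of the 9 genes in 3 vehicle-treated (red) and 3 JAK inhibitor-treated (blue) mice; points are single mice and bars give the mean and SD. The groups are apart for *Ocstamp*, *Dcstamp* and *Acp5* and overlap for the other 6 genes, and vehicle-treated mouse 3 (red triangle) is the highest of the 6 mice for *Ocstamp*, *Dcstamp*, *Acp5*, *Cd47* and *Sirpa* and the lowest for *Cd81* and *Cd44*.

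The 9 genes spanned the range of expression in these cells. By mean FPKM over the 6 mice the order was *Cd47*, *Acp5*, *Sirpa*, *Cd9*, *Cd81*, *Cd44*, *Car2*, *Ocstamp* and *Dcstamp*. *Cd47* had a mean above 96.9% of the tested genes, whereas *Ocstamp* and *Dcstamp* had means above 16.5% and 8.59% of them. Of the neighbours in this order, *Sirpa* and *Cd9*, *Cd44* and *Car2*, and *Car2* and *Ocstamp* did not overlap in their ranges over the mice. *Cd47* exceeded *Acp5* and *Cd81* exceeded *Cd44* in 6 of 6 mice although their ranges met, and *Cd9* exceeded *Cd81* in 5 of 6. The places of *Acp5* and *Sirpa* were not settled by the single mice, since *Acp5* was above *Sirpa* in 2 of 6, and *Ocstamp* was above *Dcstamp* in 3 of 6.

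*Ocstamp* (ENSMUSG00000027670.4, GRCm38 chr2:165393760-165400405, minus strand) encodes OC-STAMP, a multipass membrane protein that precursors need to become multinucleated. Its FPKM was 1.15, 2.95 and 7.62 in vehicle-treated mice 1 to 3, whereas JAK inhibitor-treated mouse 1 had a listed value of 0 and mice 2 and 3 had 0.122 and 0.789. All 3 JAK inhibitor-treated mice lay below the lowest vehicle-treated mouse, and the vehicle group itself spread widely, with mouse 3 highest. The difference was -1.73 (standard error 0.46, 95% interval -2.78 to -0.68), with an adjusted p of 0.147 in limma and an exact permutation p of 0.1. Without vehicle-treated mouse 3 it was -1.21, with a limma adjusted p of 0.184. The value depended on the constant added before the logarithm: with 0.1 in place of 1 the difference was -3.51.

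*Dcstamp* (ENSMUSG00000022303.9, GRCm38 chr15:39745930-39760938, plus strand) encodes DC-STAMP, the related fusion protein that is induced by RANKL. With vehicle the FPKM was 2.28, 0.989 and 2.75 in mice 1 to 3, and with JAK inhibitor it was 0.448, 0.255 and 0.141. The groups did not overlap, and the lowest vehicle-treated mouse was mouse 2. The group means were 2.01 ± 0.912 and 0.281 ± 0.155 (SD, n = 3 each), 7.14-fold apart. On the log2 scale the difference was -1.19 (standard error 0.28, 95% interval -1.82 to -0.55), with an adjusted p of 0.117 in limma and an exact permutation p of 0.1. Without vehicle-treated mouse 2 it was -1.46 and the limma adjusted p was 0.0499, and without vehicle-treated mouse 3 it was -1.003 with an adjusted p of 0.187. With a constant of 0.1 the difference was -2.43.

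The level of both fusion genes was low in every mouse, at 7.62 FPKM or less, and the read depth behind the values is unknown, so no counting error can be attached to them. Of the stretches of 75 bases in their GENCODE transcripts, 0.42% for *Ocstamp* and 0% for *Dcstamp* also occurred in transcripts of another gene.

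*Acp5* (ENSMUSG00000001348.15, GRCm38 chr9:22126727-22135711, minus strand) encodes TRAP, an iron-containing phosphatase that is also made by some macrophages and dendritic cells. Its FPKM was 194, 121 and 383 in vehicle-treated mice 1 to 3 and 103, 92.5 and 90.7 in JAK inhibitor-treated mice 1 to 3. The groups did not overlap, the 3 JAK inhibitor-treated mice lay close together, and vehicle-treated mouse 2 stood only slightly above them. The means were 233 ± 135 and 95.3 ± 6.38 (SD, n = 3 each), a ratio of vehicle to JAK inhibitor of 2.44. The difference on the log2 scale was -1.12 (standard error 0.33, 95% interval -1.88 to -0.37), with an adjusted p of 0.167 in limma and an exact permutation p of 0.1. Single vehicle-treated mice decided the size: without mouse 2 the difference was -1.51 and the limma adjusted p was 0.0358, and without mouse 3 it was -0.68 with an adjusted p of 0.118. An antisense transcript, *6530413G14Rik*, shares 6.75% of the exonic bases of *Acp5*, and whether strand was used in making the FPKM is not given in the sources used here.

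RefSeq places 3 transcription starts at *Acp5*, and the windows around them (250 bases before to 50 after each start, GRCm38.p6) are shown because *Acp5* was the most abundant of the 3 genes whose groups did not overlap. Capitals mark GGAAA, the core of NFAT sites, or its reverse complement TTTCC, and CATGTG, the core of MITF sites, or its reverse complement CACATG. The first start is the farthest upstream.
Acp5 start 1, chr9:22135697-22135996, minus strand: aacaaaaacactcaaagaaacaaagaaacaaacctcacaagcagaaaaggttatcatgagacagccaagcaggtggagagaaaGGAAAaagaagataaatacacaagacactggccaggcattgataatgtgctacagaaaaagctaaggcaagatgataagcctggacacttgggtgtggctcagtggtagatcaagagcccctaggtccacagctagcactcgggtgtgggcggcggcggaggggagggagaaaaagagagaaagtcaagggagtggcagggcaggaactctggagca
Acp5 start 2, chr9:22131816-22132115, minus strand: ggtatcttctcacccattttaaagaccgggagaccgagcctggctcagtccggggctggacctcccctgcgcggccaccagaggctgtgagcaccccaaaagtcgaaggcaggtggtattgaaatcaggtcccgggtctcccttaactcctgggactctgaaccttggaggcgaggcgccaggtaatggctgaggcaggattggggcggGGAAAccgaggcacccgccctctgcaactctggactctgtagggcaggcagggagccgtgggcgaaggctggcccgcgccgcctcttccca
Acp5 start 3, chr9:22130549-22130848, minus strand: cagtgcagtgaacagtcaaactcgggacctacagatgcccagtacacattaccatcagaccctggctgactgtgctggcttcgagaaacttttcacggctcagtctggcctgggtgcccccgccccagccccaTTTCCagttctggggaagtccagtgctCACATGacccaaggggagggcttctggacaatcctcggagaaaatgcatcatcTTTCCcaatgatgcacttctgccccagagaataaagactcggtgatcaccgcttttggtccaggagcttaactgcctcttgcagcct

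In the search of both strands, GGAAA was found 1, 1 and 2 times in the 3 *Acp5* windows, and 61.5% of the 32544 RefSeq windows of this length held it at least once. CATGTG was found in the third window alone, and 14.2% of all windows held it. GAGGAA, found at PU.1 sites, was in 28.1% of all windows, TGANTCA, found at AP-1 sites, in 7.79%, and TTCNNNGAA, found at STAT sites, in 8.33%, but none of the 3 was found in the *Acp5* windows. GGAAA can share bases with GAGGAA and with TTCNNNGAA. These are matches of letters only, and binding was not measured.

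*Car2* (ENSMUSG00000027562.12, GRCm38 chr3:14886273-14900770, plus strand) encodes the cytosolic carbonic anhydrase of osteoclasts, which erythroid cells also make. Its FPKM was 19.8, 21.5 and 25.2 with vehicle and 24.2, 23.8 and 28.2 with JAK inhibitor. The groups overlapped, and the highest vehicle-treated mouse exceeded 2 of the JAK inhibitor-treated mice. The means were 22.1 ± 2.76 and 25.4 ± 2.44 (SD, n = 3 each), with a difference of 0.19 (standard error 0.13, 95% interval -0.098 to 0.48, limma adjusted p = 0.511). It passed an unadjusted p under 0.05 in 2 of 14 alternatives, with library weights and without vehicle-treated mouse 3. The interval thus held both no difference and a rise of at most 0.48.

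*Cd9* (ENSMUSG00000030342.8, GRCm38 chr6:125460266-125494791, minus strand) and *Cd81* (ENSMUSG00000037706.17, GRCm38 chr7:143052739-143067934, plus strand) encode related tetraspanins that share partners, and both have been studied as regulators of macrophage and osteoclast fusion. The FPKM of *Cd9* was 142, 116 and 116 with vehicle and 130.1, 101 and 107 with JAK inhibitor. The groups overlapped, and mouse 1 was the highest of each group. The difference was -0.14 (standard error 0.13, 95% interval -0.43 to 0.14, limma adjusted p = 0.617), and with 1 mouse left out it ranged from -0.25, without JAK inhibitor-treated mouse 1, to -0.045, without vehicle-treated mouse 1. For *Cd81* the FPKM was 100.4, 92.8 and 64.6 with vehicle and 122, 96.4 and 115 with JAK inhibitor. Vehicle-treated mouse 3 was well below the other 5 mice, and the remaining vehicle-treated mice lay near the lowest JAK inhibitor-treated mouse. The difference was 0.39 (standard error 0.17, 95% interval 0.011 to 0.76), with a limma adjusted p of 0.30 and an exact permutation p of 0.2, and it was 0.20 without vehicle-treated mouse 3. The unadjusted p of *Cd81* in limma was 0.045, and it was above 0.05 in 6 of 14 alternatives, at 0.0711 to 0.142: without a filter, without the trend, with library weights, and without vehicle-treated mouse 3 or JAK inhibitor-treated mouse 1 or 3. The antisense transcripts *Gm26728* and *R74862* share 10.67% and 3.61% of the exonic bases of *Cd9* and *Cd81*. For *Cd9*, 7.63% of the stretches of 75 bases also occurred in other genes, counted on either strand and with *Gm26728* among them. Only 0.05% occurred in another gene that has values in these data. For *Cd81* the share was 0%, and how far shared stretches affect either level was not tested.

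The start windows of this pair of tetraspanins are printed for comparison with those of *Acp5*, with capitals for the same motifs. The *Cd9* window held GGAAA 2 times and CATGTG or its complement 1 time, and the *Cd81* window held none of the 5 motifs, so it has no capitals. Of the windows not printed, that of *Cd44* held GGAAA 2 times and GAGGAA 2 times, and those of *Cd47* held none of the 5 motifs. The differences of these 2 genes were 0.21 and -0.06. No window was found for *Ocstamp* or *Dcstamp*, and whether the motifs bear on the differences was not tested.
Cd9 start, chr6:125494711-125495010, minus strand: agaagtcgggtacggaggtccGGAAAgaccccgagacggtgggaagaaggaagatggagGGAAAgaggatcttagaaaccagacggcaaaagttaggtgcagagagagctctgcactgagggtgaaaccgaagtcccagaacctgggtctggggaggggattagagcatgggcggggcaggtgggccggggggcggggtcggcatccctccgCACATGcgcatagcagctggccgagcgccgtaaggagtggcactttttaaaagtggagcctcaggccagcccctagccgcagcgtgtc
Cd81 start, chr7:143052500-143052799, plus strand: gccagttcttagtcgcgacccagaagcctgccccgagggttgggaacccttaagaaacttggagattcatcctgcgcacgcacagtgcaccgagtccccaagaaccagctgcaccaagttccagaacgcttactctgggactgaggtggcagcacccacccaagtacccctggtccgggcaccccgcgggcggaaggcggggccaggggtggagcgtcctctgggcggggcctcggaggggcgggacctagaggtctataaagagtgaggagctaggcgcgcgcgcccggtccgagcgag

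*Cd44* (ENSMUSG00000005087.17, GRCm38 chr2:102811141-102901665, minus strand) encodes the hyaluronan receptor, which also binds osteopontin. Its FPKM was 73.8, 69.5 and 52.2 with vehicle and 75.2, 68.9 and 80.4 with JAK inhibitor. The groups overlapped, and vehicle-treated mouse 3 was again the lowest of the 6. The difference was 0.21 (standard error 0.14, 95% interval -0.10 to 0.52, limma adjusted p = 0.503), and 0.06 without that mouse. *Cd47* (ENSMUSG00000055447.19, GRCm38 chr16:49800533-49915010, plus strand) encodes the ligand that signals to SIRPα on myeloid cells. Its FPKM was 372, 337 and 445 with vehicle and 387, 353 and 362 with JAK inhibitor. All JAK inhibitor-treated mice lay inside the range of the vehicle group. The difference was -0.06 (standard error 0.11, 95% interval -0.31 to 0.19, limma adjusted p = 0.836), and its sign was not stable, at 0.05 without vehicle-treated mouse 3.

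*Sirpa* (ENSMUSG00000037902.18, GRCm38 chr2:129592835-129632228, plus strand) encodes SIRPα, the inhibitory receptor of this pair. Its FPKM was 157, 155 and 199 with vehicle and 148, 149 and 158 with JAK inhibitor. The groups overlapped at their edges, with JAK inhibitor-treated mouse 3 above vehicle-treated mice 1 and 2. The difference was -0.16 (standard error 0.11, 95% interval -0.41 to 0.09, limma adjusted p = 0.527), and -0.041 without vehicle-treated mouse 3. For the 3 adhesion genes together the intervals reached neither a fall of more than 0.41 nor a rise of more than 0.52.

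**Figure D2:**
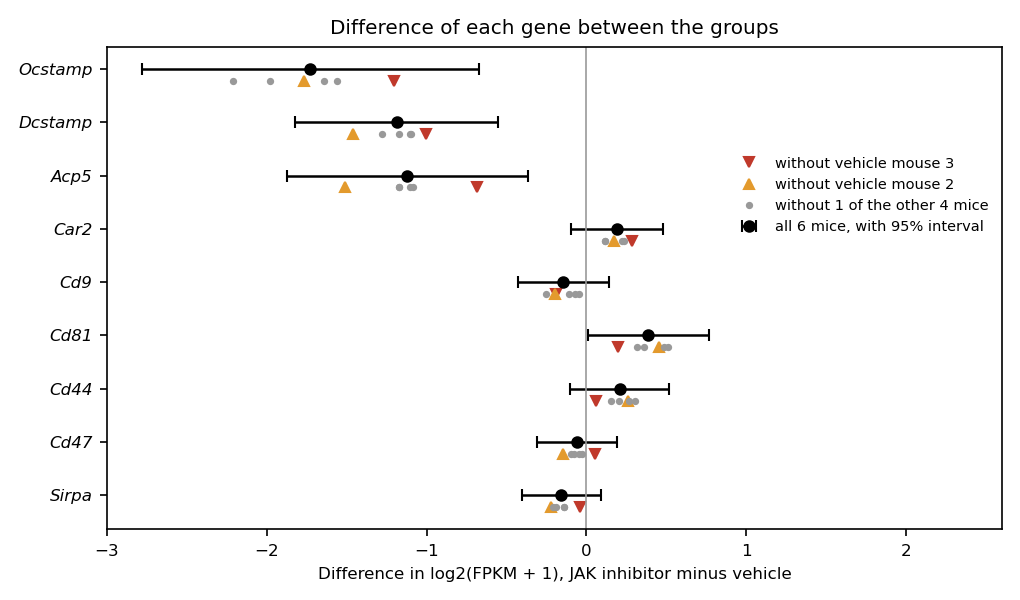
Difference in log2(FPKM + 1), JAK inhibitor minus vehicle (horizontal axis), for each of the 9 genes; black points are the limma estimates over 6 mice with their 95% intervals, and the smaller marks below them leave out 1 mouse each. Without vehicle-treated mouse 3 (red) *Ocstamp*, *Dcstamp* and *Acp5* move toward 0 but stay below it, at -1.21, -1.003 and -0.68, and *Cd47* crosses 0.

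Ratios within a library do not depend on how the libraries were scaled. The ratios were chosen after the values were seen and are given as descriptions without a test. The FPKM of *Cd9* over that of *Cd81* was 1.42, 1.25 and 1.79 with vehicle and 1.06, 1.05 and 0.925 with JAK inhibitor. The groups did not overlap, although neither gene alone separated them. The ratio of *Acp5* to *Car2*, the pair of enzymes, was 9.82, 5.63 and 15.2 with vehicle and 4.24, 3.89 and 3.22 with JAK inhibitor, again without overlap. That of *Acp5* to *Acp2*, a lysosomal acid phosphatase of most cells, was 9.94, 8.41 and 12.6 with vehicle and 10.4, 8.93 and 7.06 with JAK inhibitor. Here the groups overlapped. The ratio of the ligand *Cd47* to its receptor *Sirpa* was 2.18 to 2.37 with vehicle and 2.29 to 2.61 with JAK inhibitor, and the groups overlapped.

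**Figure D3:**
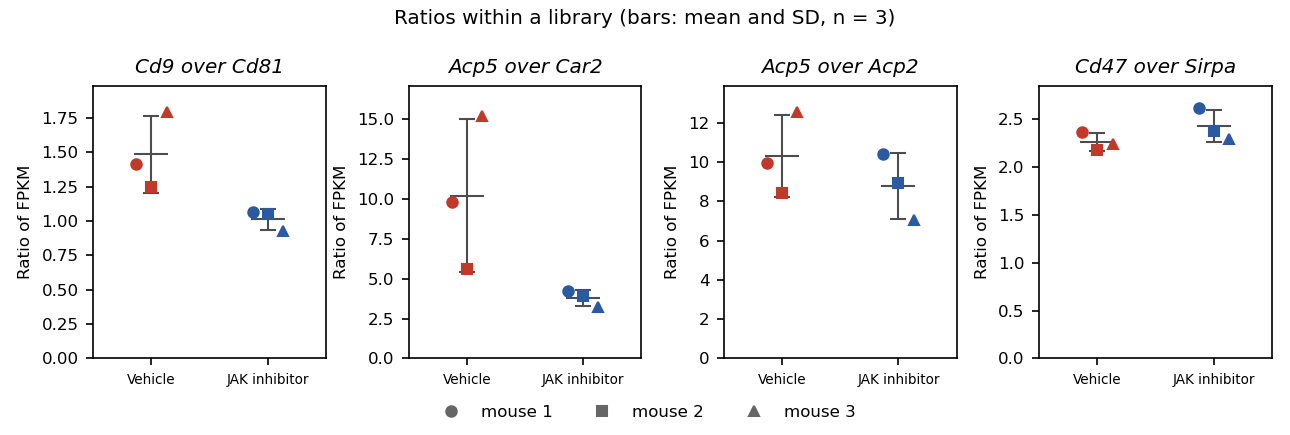
Ratio of FPKM within each library (vertical axis, linear) for 4 pairs of genes in vehicle-treated (red) and JAK inhibitor-treated (blue) mice; points are single mice and bars give the mean and SD (n = 3). *Cd9* over *Cd81* and *Acp5* over *Car2* are higher in every vehicle-treated mouse, whereas *Acp5* over *Acp2* and *Cd47* over *Sirpa* overlap between the groups.

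The 9 genes were then set beside other genes of fusion and resorption. For every list below, the shares to compare are those over all tested genes. At an unadjusted p under 0.05 these were 9.4% lower and 6.57% higher, and without vehicle-treated mouse 3 they were 8.12% and 5.39%. Groups did not overlap for 12.1% with vehicle above and for 9.92% with JAK inhibitor above. Of 25 other fusion genes, 21 were tested, of which 6 were lower and 2 higher at an unadjusted p under 0.05, with a median difference of -0.23. The 3 lower genes with the smallest p were *Mmp14* (-2.39, limma adjusted p = 0.0726), a membrane metalloproteinase, *Adam8* (-1.72, limma adjusted p = 0.109), a disintegrin metalloproteinase, and *Atp6v0d2* (-1.75, limma adjusted p = 0.131), a proton pump subunit needed for fusion. *Mmp14* had an FPKM of 36.1, 27.5 and 101 with vehicle and 7.34, 6.997 and 10.3 with JAK inhibitor, and every vehicle-treated mouse exceeded every JAK inhibitor-treated mouse. The higher ones were *Itgb3* (0.90, limma adjusted p = 0.123), the integrin β3 chain of osteoclasts, and *Cd36* (0.84, limma adjusted p = 0.201), a scavenger receptor. *Itgb3* had an FPKM of 3.16, 3.24 and 1.72 with vehicle and 5.37, 7.202 and 4.99 with JAK inhibitor, with every JAK inhibitor-treated mouse above every vehicle-treated mouse. Without vehicle-treated mouse 3, 5 of the list were lower and 3 higher, and the median was -0.13. *Adam12* was listed at 0 in every mouse.

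Of 20 bone resorption genes, 19 were tested, of which 4 were lower and 3 higher at an unadjusted p under 0.05, with a median difference of -0.19, which was -0.071 without vehicle-treated mouse 3. *Ctsk*, the collagen-degrading protease cathepsin K, had an FPKM of 55.4, 37.5 and 168 with vehicle and 7.55, 13.004 and 18.5 with JAK inhibitor. Its groups did not overlap, and the difference was -2.43 (limma adjusted p = 0.109). *Clcn7*, the chloride exchanger of the resorbing membrane, differed by -0.35 (limma adjusted p = 0.164), and *Atp6v0d2*, also in this list, is given above. *Itgb3*, *Vav3* (0.52, limma adjusted p = 0.161), a guanine nucleotide exchange factor of osteoclast spreading, and *Slc9a7* (0.47, limma adjusted p = 0.299), a sodium-proton exchanger, were the 3 higher genes. *Calcr*, the calcitonin receptor of mature osteoclasts, was listed at 0 in every mouse. The ratio of *Acp5* to *Ctsk* was higher in every JAK inhibitor-treated mouse: it was 3.50, 3.22 and 2.29 with vehicle and 13.6, 7.11 and 4.91 with JAK inhibitor, and it was also chosen after the values were seen.

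The acid phosphatases and carbonic anhydrases are the enzyme families of *Acp5* and *Car2*. Of 5 other acid phosphatases in the tables, 4 were tested, and 3 of them were lower at an unadjusted p under 0.05: *Acp2* (-0.85, limma adjusted p = 0.156), *Acpp* (-0.80, limma adjusted p = 0.157) and *Acp1* (-0.26, limma adjusted p = 0.299). The groups did not overlap for any of these 3, and the median difference was -0.53, against -0.40 without vehicle-treated mouse 3. Of 15 other carbonic anhydrases, 5 were tested, and 1 was higher at an unadjusted p under 0.05: *Car1*, the isozyme of red cells, with an FPKM of 24.6, 36.3 and 2.202 with vehicle and 70.5, 58.7 and 84.4 with JAK inhibitor. The difference of *Car1* was 2.30 (limma adjusted p = 0.196) and 1.21 without vehicle-treated mouse 3, in which it was lowest. *Car4* and *Car10* were listed at 0 in every mouse.

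Of 22 other tetraspanins, 15 were tested, with 0 lower and 3 higher at an unadjusted p under 0.05 and a median difference of 0.15. The 3 were *Tspan2* (0.85, limma adjusted p = 0.131), *Cd53* (0.24, limma adjusted p = 0.201) and *Tspan17* (0.40, limma adjusted p = 0.301). *Cd53*, a pan-leukocyte tetraspanin, had an FPKM of 187, 188 and 199 with vehicle and 234, 216 and 231 with JAK inhibitor, so its groups did not overlap. *Tspan12* was listed at 0 in every mouse.

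Of 22 binding partners of the surface proteins found in the tables, 16 were tested, with 3 lower and 3 higher at an unadjusted p under 0.05 and a median difference of 0.03. The lower genes encode ligands or their receptors: *Thbs1* (-1.19, limma adjusted p = 0.113), a secreted ligand of CD47, *Spp1* (-1.48, limma adjusted p = 0.30), the osteopontin bound by CD44, and *Itga5* (-0.62, limma adjusted p = 0.243), an integrin α chain. *Thbs1* had an FPKM of 4.03, 4.73 and 8.70 with vehicle and 1.37, 2.54 and 1.81 with JAK inhibitor, without overlap. *Spp1* had 35.2, 37.4 and 247 with vehicle and 27.0, 17.2 and 29.8 with JAK inhibitor, so that 1 mouse set most of its difference, which was -0.57 without it, and the difference of *Itga5* was -0.36 without that mouse. The higher genes were *Itga4* (0.59, limma adjusted p = 0.109) and *Itgb1* (0.25, limma adjusted p = 0.299), the integrin chains that CD81 and CD9 associate with, and *Sirpb1a* (0.53, limma adjusted p = 0.204), a relative of *Sirpa*. The phosphatases recruited by SIRPα, *Ptpn6* (-0.15, limma adjusted p = 0.461) and *Ptpn11* (0.02, limma adjusted p = 0.959), had differences near 0. *Thbs2*, *Has2* and *Sftpd* were listed at 0 in every mouse. None of the genes of these 6 lists had an adjusted p under 0.05 in limma.

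**Figure D4:**
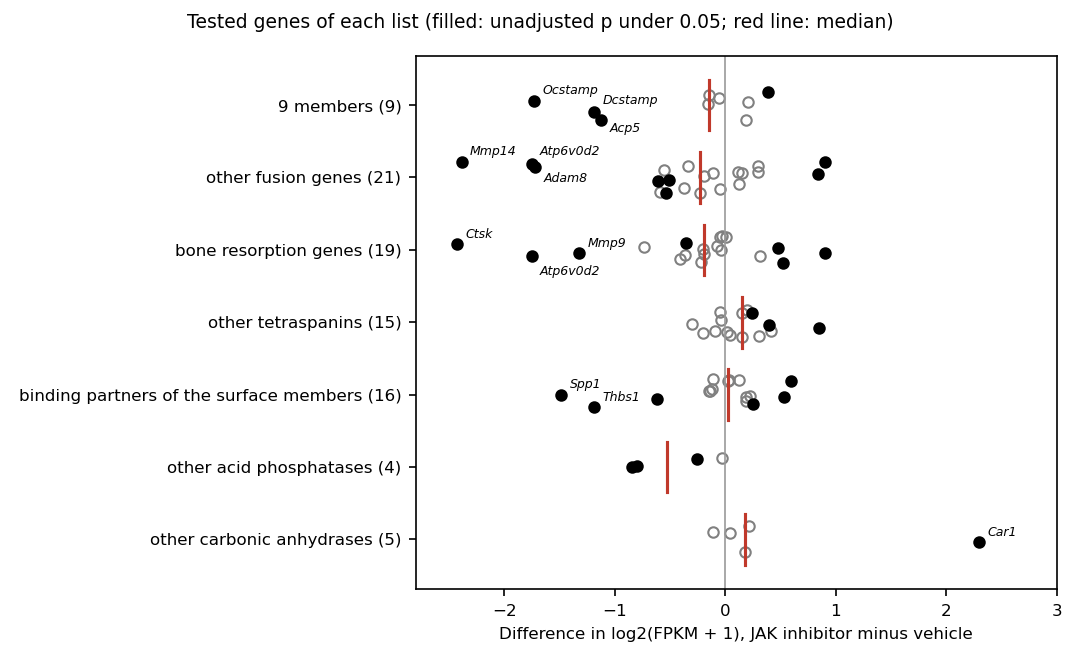
Difference in log2(FPKM + 1), JAK inhibitor minus vehicle (horizontal axis), of every tested gene among the 9 genes and 6 other lists, with the number tested in brackets; filled points have an unadjusted limma p under 0.05, the red line is the median of a list, the vertical position within a list has no meaning, and genes beyond 1 in either direction are named. The medians of the fusion and resorption lists lie at -0.23 and -0.19 and that of the tetraspanins at 0.15 (without vehicle-treated mouse 3 at -0.13, -0.071 and 0.10), and *Car1* is the gene farthest to the right, at 2.30.

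The genes most like 4 of the members over the 6 mice were found by the mean absolute difference of their centred log2(FPKM + 1), among 10481 genes with a mean FPKM of at least 1. For *Ocstamp* they were *Slc37a2* (0.26), *Vcan* (0.26) and *Ifitm1* (0.29). For *Dcstamp* they were *Pira7* (0.092), *Dgat2* (0.11) and *Cd300lf* (0.11). *Pira7* had an FPKM of 6.53, 3.62 and 8.66 with vehicle and 2.81, 2.47 and 2.07 with JAK inhibitor, in the same order of mice as *Dcstamp*. For *Acp5* they were *Clec4n* (0.10), *Sdc1* (0.13) and *Tarm1* (0.13), and for *Car2* *Rsrp1* (0.018), *Bcor* (0.023) and *Mau2* (0.024). Likeness over 6 mice is a description and is given without a test.

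Marker lists of osteoclasts and of other cells were summed in each mouse as well, and none of their genes had an adjusted p under 0.05 in limma. Of 7 tested osteoclast markers, 3 were lower and 1 (*Itgb3*) higher at an unadjusted p under 0.05, and the summed FPKM of the 8 listed was 82.3 to 294 with vehicle and 52.9 to 67.1 with JAK inhibitor. All 8 are also among the bone resorption genes above, so this is no separate result. *Ctsk* (168) and *Mmp9* (66.9) made up most of the 294 of vehicle-treated mouse 3. Of 9 tested macrophage markers, 4 were lower and 0 higher at an unadjusted p under 0.05, among them *C1qb* (-1.78, limma adjusted p = 0.0721), *C1qa* (-1.66, limma adjusted p = 0.122) and *C1qc* (-1.51, limma adjusted p = 0.154), and the sum was 256 to 433 with vehicle and 141 to 234 with JAK inhibitor. The fall was not shared by the whole list. *Adgre1*, next to *C1qb* in mean FPKM, differed by -0.10 (limma adjusted p = 0.763), *Axl* by -0.19 (limma adjusted p = 0.764) and *Vcam1* by 0.46 (limma adjusted p = 0.370). Without vehicle-treated mouse 3, 6 of the list were lower and 1 higher at an unadjusted p under 0.05. TRAP and the fusion proteins can also be made by macrophages, and the part of this marker list in the values of *Acp5*, *Ocstamp* and *Dcstamp* was not tested. Of 7 tested erythroid markers, 3 were higher (*Klf1*, *Hba-a1* and *Car1*), and the sum was 5.46 to 41.1 with vehicle and 65.8 to 144.0 with JAK inhibitor. *Car1*, described above, made up most of this sum in 5 of the 6 mice, and *Hba-a1* had 38.6 FPKM in JAK inhibitor-treated mouse 3 against 2.64 and 1.96 in mice 1 and 2. *Car2* is made by erythroid cells, and their part in its level was not tested. The defining genes *Slc4a1* and *Alas2* reached 0.810 and 0.965 FPKM in JAK inhibitor-treated mouse 3 and at most 0.014 in the others.

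Of 11 neutrophil markers, 3 were lower (*Mmp8*, *Il1r2* and *Cxcr2*) and 3 higher (*Camp*, *Elane* and *Mpo*) at an unadjusted p under 0.05, and their sum was 17188 to 24086 with vehicle and 17263 to 24455 with JAK inhibitor. *S100a8* and *Mpo* were its most abundant genes. Of 8 monocyte markers, 0 were lower and 2 (*Nr4a1* and *Ace*) higher, and the sum was 4044 to 6021 with vehicle and 5585 to 6009 with JAK inhibitor. *Cx3cr1*, the locus of the reporter, had an FPKM of 30.1, 31.5 and 15.5 with vehicle and 30.1, 29.5 and 36.1 with JAK inhibitor. The basophil and mast cell markers summed to 1606 to 3490 with vehicle and 2445 to 3793 with JAK inhibitor. The sorted cells thus held transcripts of granulocyte genes beside those of monocytes, and the part of each cell type in the 9 genes was not tested. *Ms4a1* and *Pax5* of B cells and *Sp7* of osteoblasts were listed at 0 in every mouse. Of 9 housekeeping genes, 1 was lower and 0 higher at an unadjusted p under 0.05, with a median difference of 0.068. The lower one was *Gapdh*, the reference gene of the study's RT-qPCR (-0.50, limma adjusted p = 0.0886). Its FPKM was 2678, 2629 and 2937 with vehicle and 1902, 1824 and 2095 with JAK inhibitor, without overlap.

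Vehicle-treated mouse 3 stood apart from the other 5 mice in several of these lists. It had the highest *Ocstamp*, *Dcstamp*, *Acp5*, *Ctsk* and *Spp1*, with *Il1r2* at 846 FPKM where the other mice had 4.96 to 58.4, and the lowest *Cd81*, *Cd44*, *Cx3cr1* and *Car1*. Without it, 3 of the 9 genes (*Ocstamp*, *Dcstamp* and *Acp5*) were lower and 1 (*Car2*, at 0.28) higher at an unadjusted p under 0.05, beside 8.12% and 5.39% of all genes then tested, and *Cd81* was no longer among them.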

How the data were processed

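The authors deposited 1 table of FPKM per mouse. The submitters' processing notes name TopHat2 2.0.13, Bowtie2 2.2.3, SAMtools 0.1.19, Cufflinks 2.2.1 and mm10. The methods name a TruSeq Stranded kit and the labels SMART-Seq HT with Nextera, so the use of strand is uncertain. The labels describe treated cells of a cell line, with titles that begin with an unexplained BM, whereas the methods describe cells sorted from the calvaria of treated mice, and the methods were followed. The labels number the samples within a group but do not say that they are separate animals, which the methods imply. Otherwise, p-values measure the spread between samples only.

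From the deposited FPKM, log2(FPKM + 1) of 11301 genes with at least 1 FPKM in at least 1 mouse was compared with limma 3.58.1 in R 4.3.3 (trend, Benjamini-Hochberg adjustment, no replicate block) over 3 and 3 mice. FPKM hold no read counts, so no count test was run and the depth is unknown. FPKM summed to 688372 to 775790 per library, and 10361 to 10439 genes reached 1 FPKM. On simulated data of 11301 genes with 200 shifted by 1.5, 94% were recovered and 4.08% of the calls were false. The noise was normal, and the shifted genes were drawn only from genes with higher means than those of *Ocstamp* and *Dcstamp*. The share recovered therefore does not apply to these low genes. Nor does it apply to *Acp5*, whose difference of -1.12 was smaller than the simulated shift. The members and lists were chosen with earlier results of these data known. Named beside the 9 genes were, from most of the lists described, up to 3 lower and 3 higher genes with the smallest unadjusted p under 0.05. The most alike genes, abundant markers and those at 0 were named as well. Other genes named were chosen after their values were seen, and not every list examined is described. Alternatives were a pseudocount of 0.1, other filters, other scalings, no trend, library weights, a replicate block and each mouse left out. Positions are from GENCODE M21 and windows from RefSeq, both on GRCm38. Windows were found for 5 of the 9 members. Tables were made in Python 3.11.15 with NumPy 2.4.6, pandas 2.3.3 and SciPy 1.17.1, and figures with matplotlib 3.10.9.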

Additional observations from a re-analysis of the deposited data

How the results depend on the processing

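Of 125 differences recomputed for the 9 genes, 121 kept their direction and their side of an adjusted p of 0.05. Of 42 recomputed counts of genes, 32 stayed within 1.5 times the count given. *Cd47* changed sign with quantile normalization, to 0.0079, and ranged from -0.15 to 0.052 with 1 mouse left out (0.052 without vehicle-treated mouse 3). With 1 mouse left out, *Dcstamp* ranged from -1.46 to -1.003 and *Acp5* from -1.51 to -0.68, and both passed an adjusted p under 0.05 in limma without vehicle-treated mouse 2 alone. *Dcstamp* gave no value where an FPKM of at least 1 in 3 mice was required. The number of genes called at an adjusted p under 0.05, 15 here, was 2 without a filter, 34 with at least 1 FPKM in 3 mice, 2 without the trend, 63 with library weights and 3 to 95 with 1 mouse left out. With the replicate number as a block, 67 genes were called, none of them a member, and *Ocstamp* had a limma adjusted p of 0.0657. The deviations of same-numbered mice correlated by -0.00016 to 0.054. With 3 mice per group this cannot show whether same-numbered mice were handled together, and the labels do not say so. The block changed no call of a member. The causes were not tested. Depth is unknown, which limits the low values of *Ocstamp* and *Dcstamp* most.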
